A study of Homo sapiens with 6 samples.

Results

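The 4 parental HEC-1B libraries of the series were compared, out of 6 libraries in all. HEC-1B is an established line of human endometrioid carcinoma, the glandular type of cancer of the uterine lining. Of these libraries, 2 carry the label HEC-1B with ALDH-high accel (the accelerated group) and 2 the label HEC-1B with ALDH-high to low (the high-to-low group); they were chosen by these titles and not by any measured value. The other 2 libraries, whose titles add a high ALDH potential, are called the high-potential libraries and are used only for values set side by side. Cells were assigned by FACS, and the series compares cells with and without a faster passage into the ALDH1A1-high state. All groups share the same line, RNA extraction and cDNA kit, and no label gives a treatment, a time in culture or the agent behind the acceleration. No label says whether replicates came from separate cultures, so a p-value here reflects how far these libraries scatter, and that scatter may be technical. Parental is used here for libraries without the high-potential label.

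Aldehyde dehydrogenases oxidise aldehydes to acids. ALDH1A1 turns retinaldehyde into retinoic acid, which acts through nuclear receptors on target genes. High ALDH activity is widely used to enrich stem-like cells of carcinomas, the endometrial kind included, and cells can pass between the high and low states in culture.

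The files list 23284 gene symbols, and 11783 of them reached 1 FPKM (fragments mapped to a gene, scaled by transcript length and library size) in at least 2 of the 4 libraries. After 87 MIR, SNORA, SNORD and SNAR symbols were left out, 11696 genes were kept, of which 11000 matched a protein-coding RefSeq gene. The 4 libraries listed 14786 to 15031 genes above 0, and their depth, read from the steps between low values with accelerated replicate 1 set at 1, lay between 0.978 and 1.15. No file repeats another. Across kept genes, Pearson's r of log2(FPKM + 1) was 0.950 between the accelerated replicates and 0.968 between the high-to-low replicates. The closest libraries were of different groups: accelerated replicate 1 and high-to-low replicate 1 had r = 0.989. These coefficients run across genes, which do not replicate one another.

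ALDH1A1, the marker of the sorted state, was at 26.7 FPKM in accelerated replicate 1 and 317 FPKM in accelerated replicate 2. The high-to-low replicates had 28.4 and 9.44 FPKM. Accelerated replicate 1 thus lay inside the high-to-low range and only replicate 2 stood above it, so the groups overlap. The mean difference was 2.42 on the log2(FPKM + 1) scale (SE 1.12, limma adjusted p = 1.0), and the two-sided exact permutation test over the 4 libraries gave p = 0.667, where 2 against 2 cannot go below 0.33. Without accelerated replicate 1 the difference was 4.18, and without replicate 2 it was 0.66. Each of these rests on 1 accelerated library, so no p-value is given. The high-potential libraries had 353 and 304 FPKM, next to accelerated replicate 2. The promoter is shown because this gene defines the compared states: the 250 bases before the RefSeq start (chr9:72953054-72953303, minus strand, GRCh38.p14) hold 1 CCAAT box, in capitals, whose first base is 74 bases before the start. CCAAT on either strand was found in 32.0% of 34943 RefSeq promoters of the same length, and 4 other motifs were searched on both strands without a match here: the TATA box (TATAAA), the cyclic AMP response element (TGACGTCA), the AP-1 site (TGACTCA) and the CArG box.
ALDH1A1: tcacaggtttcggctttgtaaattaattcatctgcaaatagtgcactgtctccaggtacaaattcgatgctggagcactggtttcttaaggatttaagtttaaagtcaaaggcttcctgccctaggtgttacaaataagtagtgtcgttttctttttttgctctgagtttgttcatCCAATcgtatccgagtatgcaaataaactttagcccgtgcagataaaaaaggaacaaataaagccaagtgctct

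The ALDH family, counted here with ALDH1A1 itself, had a small median difference. Of 19 family members in the files 14 were kept, 6 of them higher and 8 lower in the accelerated group, with a median log2 difference of -0.02 against -0.02 over all genes kept. Its sign turned under quantile normalization (0.03) and on leaving out accelerated replicate 1 (0.07), accelerated replicate 2 (0.09) or high-to-low replicate 1 (0.16). In 3 members, all lower, the groups had no overlap, where 13.0% of all genes kept were lower without overlap. One was ALDH1L2, a mitochondrial folate enzyme, at 3.77 and 4.29 FPKM in the accelerated and 6.03 and 6.43 FPKM in the high-to-low pair (log2 difference -0.52, SE 0.24). ALDH3A2, which oxidises fatty aldehydes, had 61.1 and 80.7 against 66.6 and 53.9 FPKM, with overlap. In the retinoid list 7 of 10 kept members were higher (median 0.09, but -0.10 if high-to-low replicate 2 was left out). DHRS3, a retinaldehyde reductase, was at 47.2 and 33.5 FPKM in the accelerated pair, and high-to-low replicate 1 shared that level at 48.4 FPKM while replicate 2 had 4.32. RDH10, which makes retinaldehyde from retinol, was at 43.2 and 11.0 against 40.4 and 22.1 FPKM, again split by replicate rather than by group.

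Across all genes kept, no protein-coding gene passed the threshold between the groups. Of the 11696 genes, 1 passed limma's adjusted p of 0.05 (0.00855%). It is VTRNA1-3, a vault RNA, listed at 0 in both accelerated libraries and at 376 and 1295 FPKM in the high-to-low pair (limma adjusted p = 0.0299). It passed the FPKM minimum only through the high-to-low pair, and the equal listed values give the accelerated group no spread. Without a filter on low values its limma adjusted p was 0.692. High-potential replicate 1 is also listed at 0 and replicate 2 at 500 FPKM, and FPKM of such short RNAs rest on few fragments. An unadjusted p under 0.05 was reached by 81 genes (0.693%), 32 higher (0.274%) and 49 lower (0.419%). Without overlap between the groups, 1301 genes were higher (11.1%) and 1516 lower (13.0%) in the accelerated libraries. Leaving out a library leaves 1 in its group, whose spread is then unknown, so no count of genes passing is given for such fits.

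IL1R2, CD70 and PLA2G7 were among the genes whose 2 groups did not overlap, which held for 24.1% of all genes kept. IL1R2 encodes the decoy receptor that binds interleukin-1 without signalling. It was at 2.77 and 0.0833 FPKM in the accelerated and at 4.73 and 10.6 FPKM in the high-to-low pair. On the log2 scale it was lower by a fitted -2.01 (SE 0.65, limma adjusted p = 1.0). CD70, the ligand of the T cell receptor CD27 in the TNF superfamily, was at 2.49 and 0.284 FPKM against 5.52 and 5.65 FPKM (-1.64, SE 0.49, limma adjusted p = 1.0). For both genes accelerated replicate 2 was far lower than replicate 1. PLA2G7 encodes a secreted phospholipase that hydrolyses platelet-activating factor. It was at 1.97 and 6.23 FPKM in the accelerated pair, against 0.989 and 0.417 FPKM (1.46, SE 0.48, limma adjusted p = 1.0). PLA2G7 thus passed the FPKM minimum only through the accelerated pair, and its lack of overlap was fixed by that filter. All 3 genes were low, so a few fragments weigh on each value. The high-potential libraries lay between the groups for CD70 (4.0 and 2.72 FPKM) and for 1 of 2 libraries for PLA2G7 (2.71 and 1.83 FPKM).

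**Figure D1:**
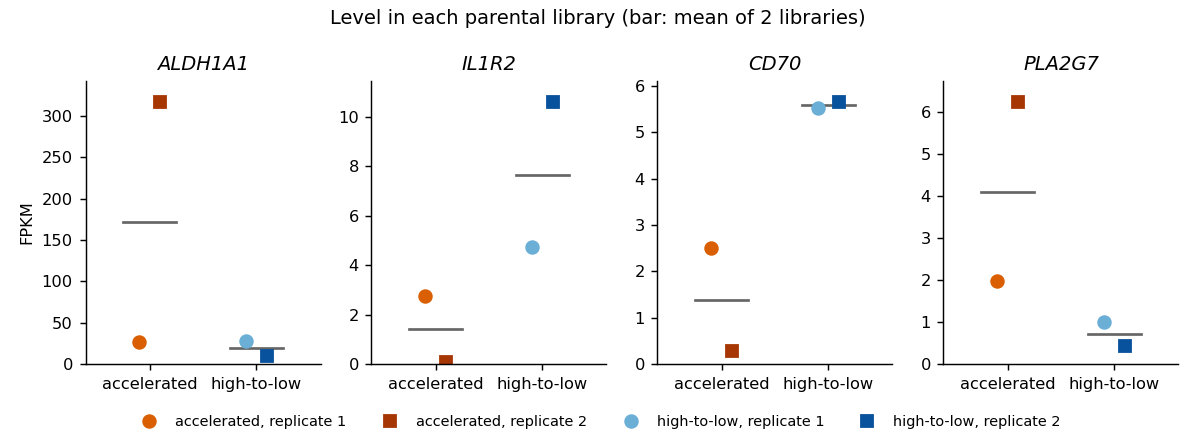
FPKM (vertical axes, from 0) of ALDH1A1, IL1R2, CD70 and PLA2G7 in the 2 accelerated and the 2 high-to-low libraries; circles are replicate 1, squares replicate 2 and bars the mean of 2. For ALDH1A1 only accelerated replicate 2 (317 FPKM) is high, while for the other 3 genes the groups do not overlap. For PLA2G7 the FPKM minimum fixed this, as it was kept only through the accelerated pair.

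Their families, counted here with IL1R2, CD70 and PLA2G7 themselves, held members on both sides. In the interleukin-1 list 7 of 10 kept members were lower (median -0.08), 3 of them without overlap (30.0%, beside 13.0% over all genes). Leaving out any 1 library put this median between -0.26 and -0.18. Beside IL1R2 these were IRAK2, a kinase downstream of the receptor, at 3.54 and 1.87 against 4.31 and 5.51 FPKM, and IRAK4, at 10.7 and 8.69 against 11.2 and 13.0 FPKM. The signalling receptor IL1R1 had 6.51 and 4.70 against 6.54 and 4.10 FPKM. In the TNF superfamily 12 of 16 kept members were lower (median -0.25), 6 without overlap (37.5%, beside the same 13.0%). Accelerated replicate 2 was below the other 3 libraries for 12 of the 16 (75.0%, beside 30.5% over all genes), and if it was left out the median was -0.01. TNFRSF12A, the receptor of TWEAK, was at 147 and 109 against 159 and 254 FPKM (log2 difference -0.67, SE 0.31). CD27, the receptor of CD70, was not among the kept genes. Among 17 kept genes of phospholipase A2 and platelet-activating factor 7 were higher and 10 lower (median -0.10). This median was 0.03 if high-to-low replicate 1 was left out and -0.03 if accelerated replicate 2 was.

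The genes with the widest gap upward were 2 small nuclear RNAs of Cajal bodies and 10 genes at modest levels. SCARNA22 was at 164 and 134 FPKM in the accelerated pair against 56.7 and 32.5 FPKM (log2 difference 1.76, SE 0.31). SCARNA15 was at 60.1 and 92.2 FPKM against 26.0 FPKM and a listed 0. Among protein-coding genes ANKRD36, an ankyrin repeat gene with close copies in the genome, had 4.63 and 4.12 against 1.97 and 1.23 FPKM (1.06, SE 0.28); fragments of such copies cannot be assigned with certainty. TSC1, which encodes hamartin, a brake on mTOR signalling, had 5.54 and 8.15 against 3.35 and 2.97 FPKM (0.90, SE 0.27). Its values were tight in the high-to-low libraries and more spread in the accelerated ones. STS, the steroid sulfatase that frees oestrogen precursors, had 4.43 and 4.42 against 2.66 and 2.71 FPKM (0.56, SE 0.24). GPCPD1, a glycerophosphocholine phosphodiesterase, had 6.25 and 7.50 against 4.06 and 4.22 FPKM. The zinc finger genes ZNF253, ZNF192 and ZNF782 differed by 0.85, 0.71 and 0.77, EGFL8 by 0.92 and TTC21B, a gene of transport within cilia, by 0.76. None of these passed; each limma adjusted p was 1.0.

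Downward, the widest gaps after VTRNA1-3 belonged to RPPH1, the RNA of ribonuclease P, and to 10 protein-coding genes. HSD17B6, an enzyme of androgen and retinol metabolism, was at 1.27 and 1.38 FPKM in the accelerated and 4.28 and 3.28 FPKM in the high-to-low pair (log2 difference -1.03, SE 0.27). TM4SF4, a tetraspan membrane protein, was at 7.4 and 5.72 against 12.9 and 19.7 FPKM (-1.18, SE 0.29). RAC2, a GTPase best known from blood cells, was at 4.42 and 2.46 against 7.19 and 10.6 FPKM (-1.17, SE 0.33). In these genes both accelerated libraries lay below both others. ULBP2, a ligand of the natural killer cell receptor NKG2D, had 3.35 and 2.02 against 6.10 and 6.32 FPKM (-0.99, SE 0.28). SLC39A8, a zinc and manganese importer, had the most even values, 7.32 and 8.20 against 12.7 and 13.6 FPKM (-0.69, SE 0.22). AK5, an adenylate kinase, had 1.07 and 0.481 against 2.06 and 4.30 FPKM. The remaining differences were -0.85 for AGPHD1, -0.71 for NRGN and -1.10 for RPPH1. The limma adjusted p of each was 1.0.

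Genes of the tetraspan, adenylate kinase, and BEX and TCEAL families were lower in most cases. The tetraspan and adenylate kinase counts include TM4SF4 and AK5, which were named above for their gap. TM4SF1, like TM4SF4, had both accelerated values below the others, with 274 and 207 FPKM in the accelerated pair against 331 and 490 FPKM (log2 difference -0.75, SE 0.29, limma adjusted p = 1.0), and 17 of 18 kept tetraspan genes were lower (median -0.26), 6 without overlap (33.3%, beside 13.0% over all genes). The tetraspan median was -0.03 if accelerated replicate 2 was left out and -0.13 if high-to-low replicate 1 was. Of 7 adenylate kinase genes 5 were lower (median -0.16, and -0.09 under quantile normalization or if accelerated replicate 2 was left out), while AK1, the cytosolic form, had 13.4 and 29.6 against 12.8 and 12.7 FPKM. Of 8 kept BEX and TCEAL genes 6 were lower (median -0.12, but 0.01 under quantile normalization and -0.02 if accelerated replicate 2 was left out), led by BEX5 with 7.36 and 2.45 against 12.7 and 9.55 FPKM (-1.16, SE 0.44).

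Genes of translation and respiration were lower by small amounts in both accelerated libraries. Of 76 kept ribosomal protein genes 66 were lower, with a median log2 difference of -0.20, and 26 (34.2%) had no overlap, beside 13.0% over all genes. RPL24, a protein of the large subunit, was at 93.3 and 79.6 FPKM against 111 and 135 FPKM (-0.50, SE 0.23). Of 70 kept genes of oxidative phosphorylation 63 were lower (median -0.20) and 33 (47.1%) did not overlap. NDUFAB1, the mitochondrial acyl carrier protein in complex I, was at 289 and 241 against 357 and 373 FPKM (-0.47, SE 0.23). SDHA, the catalytic subunit of complex II, was at 310 and 297 against 347 and 446 FPKM. Medians of these lists against the high-to-low mean were alike in both accelerated replicates, -0.20 and -0.22 for ribosomal proteins and -0.25 and -0.20 for oxidative phosphorylation. No member passed the adjusted threshold. The high-to-low replicates themselves differed by 0.24 and 0.18 in these medians, and without replicate 2 of that group the medians were -0.10 and -0.09. Quantile normalization gave -0.09 and -0.08.

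Genes of lipid synthesis were also mostly lower. Of 24 kept genes of cholesterol synthesis 21 were lower (median -0.27), 11 without overlap (45.8%, beside 13.0% over all genes). This median was -0.07 if high-to-low replicate 2 was left out and -0.44 if replicate 1 was. INSIG1, which holds back the pathway's regulator in the endoplasmic reticulum, had 99.5 and 42.6 against 104 and 105 FPKM. HMGCS1, the synthase of HMG-CoA, overlapped, with 114 and 71.0 against 117 and 39.6 FPKM. In fatty acid synthesis 13 of 15 genes were lower (median -0.15), 4 without overlap (26.7%, beside the same 13.0%), and the median was -0.33 if accelerated replicate 1 was left out and -0.28 if high-to-low replicate 1 was. SCD, the desaturase of stearate, was at 149 and 116 against 172 and 201 FPKM. None passed.

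Most NF-kB and NRF2 targets were higher. Of 19 kept NF-kB targets and cytokines 14 were higher (median 0.23), 7 without overlap (36.8%), beside 11.1% over all genes. The median was 0.05 if high-to-low replicate 2 was left out and 0.44 if replicate 1 was. CCL20, a chemokine, had 1.85 and 1.11 FPKM in the accelerated pair, against 0.268 FPKM and a listed 0 (log2 difference 1.12, SE 0.33, limma adjusted p = 1.0). It was kept only through the accelerated pair, so its lack of overlap was fixed by the FPKM minimum. NFKBIA, the inhibitor that NF-kB induces, was at 61.0 and 62.1 against 50.5 and 23.2 FPKM (0.82, SE 0.37). For NFKBIA the accelerated values were alike and the high-to-low values apart. LIF, a cytokine of the interleukin-6 family, had 5.37 and 9.78 against 4.56 and 4.48 FPKM. Of 30 NRF2 targets 23 were higher (median 0.19), 3 without overlap (10%, near the same 11.1% over all genes). OSGIN1 was at 16.0 and 36.2 FPKM against 12.8 and 13.4 FPKM, and NQO1, a quinone reductase, at 1177 and 1477 against 1206 and 817 FPKM. The NRF2 median was 0.01 in accelerated replicate 1 and 0.39 in replicate 2 against the high-to-low mean, and 0.08 if high-to-low replicate 2 was left out.

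The accelerated replicates differed from each other more than the high-to-low replicates did. Between them 106 genes differed by at least 2 on the log2(FPKM + 1) scale, 96 lower (0.821%) and 10 higher (0.0855%) in replicate 2. The high-to-low replicates differed so in 30 genes, 26 lower (0.222%) and 4 higher (0.0342%) in replicate 2. Between accelerated replicate 1 and high-to-low replicate 1 there were 6 such genes, and between accelerated replicate 2 and high-to-low replicates 1 and 2 there were 111 and 43. Of the 96 genes low in accelerated replicate 2, high-to-low replicate 1 was nearer to accelerated replicate 1 for 95 and high-to-low replicate 2 for 54. With 1 library on each side these counts have no test. The number that ends the sample description starts differently for accelerated replicate 2 than for the other 3 libraries. What it stands for is not given in any source used here, and its part in the difference was not tested.

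**Figure D2:**
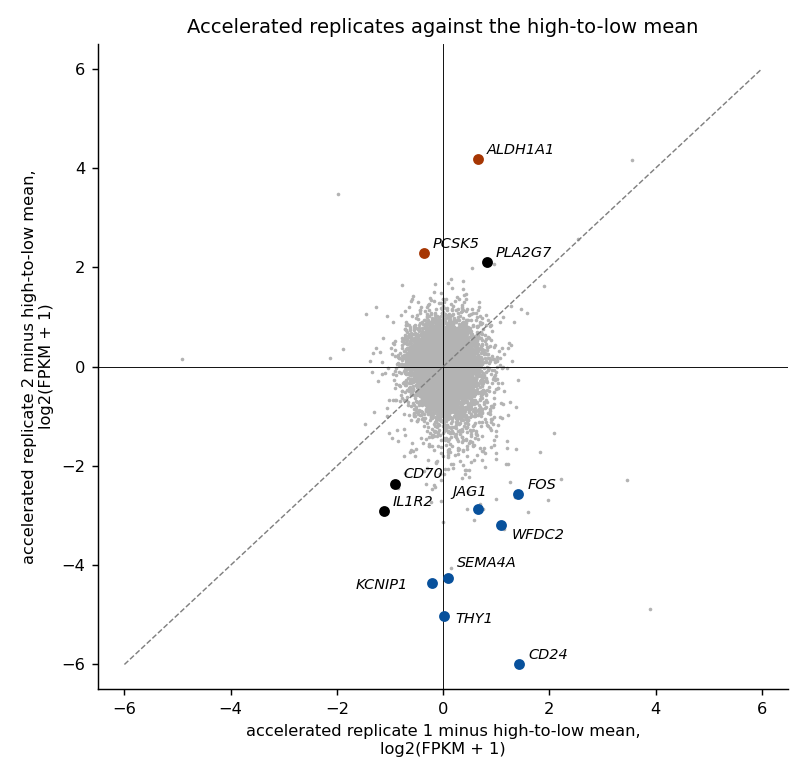
Each grey point is 1 of the kept genes, drawn at its difference from the high-to-low mean in accelerated replicate 1 (horizontal) and replicate 2 (vertical), in log2(FPKM + 1); the dashed line marks equal differences, and VTRNA1-3 lies outside the axes. The cloud is taller than wide, with ALDH1A1 at 0.66 and 4.18 and THY1 at 0.02 and -5.02.

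The genes that were lowest in accelerated replicate 2 against replicate 1 had varied roles. THY1 encodes the membrane glycoprotein CD90, used as a stromal and stem cell marker. It was at 297 FPKM in accelerated replicate 1, 8.04 in replicate 2, and 314 and 273 FPKM in the high-to-low pair. Accelerated replicate 2 stood alone, with a log2 difference of -5.04 from replicate 1. SEMA4A, a semaphorin, was at 35.5 and 0.797 FPKM in the accelerated and 42.5 and 26.3 FPKM in the high-to-low pair. SPNS2, the exporter of sphingosine 1-phosphate, was at 36.6 and 1.02 FPKM, against 37.2 and 28.8 FPKM. KCNIP1, a calcium sensor that binds potassium channels, was at 52.3 and 2.0 FPKM, against 57.1 and 65.1 FPKM. In each of these accelerated replicate 1 was far nearer to both high-to-low libraries than replicate 2 was. JAG1, a Notch ligand, was at 34.4 and 2.11 FPKM, against 28.9 and 16.1 FPKM. TSPAN1, a tetraspanin, was at 66.4 and 6.75 FPKM, against 79.5 and 56.0 FPKM. The list went on with C19orf77, HSPA6 (an inducible heat shock protein), HIST1H2AD, RIPK4, CPE (a carboxypeptidase of prohormones) and LOC440356, with differences between -3.33 and -2.51. These genes were picked for this difference, so it is a description.

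Genes at least 2 higher in accelerated replicate 2 than in replicate 1 on the log2 scale were fewer, 10 against 96 lower. Of those the naming rule gave, SCARNA27 differed by 5.06 and the next, PCSK5, by 2.65. ALDH1A1 was higher by 3.52, but its high-to-low replicates were too far apart for that rule. PCSK5, a proprotein convertase, was at 3.82 and 29.3 FPKM in the accelerated and 4.14 and 6.52 FPKM in the high-to-low pair. CSRP2, a LIM domain protein, was at 5.78 and 36.6 FPKM, against 11.2 and 20.6 FPKM. IGFBP2, which binds insulin-like growth factors, was at 7.68 and 32.4 FPKM, against 10.5 and 13.7 FPKM. For PCSK5 and IGFBP2 the other 3 libraries were close together. IGFBP3 of the same family was at 4.71 and 17.3 FPKM, against 4.75 and 6.22 FPKM. PLAT, the tissue plasminogen activator, was at 2.17 and 10.2 FPKM, against 1.92 and 3.28 FPKM. LGALS3, the lectin galectin-3, was at 5.92 and 25.2 FPKM, against 8.55 and 10.7 FPKM. In the high-potential libraries IGFBP2 had 68.3 and 166 FPKM, IGFBP3 206 and 389 FPKM and PLAT 17.7 and 28.2 FPKM, all above accelerated replicate 2, whereas PCSK5 had 0.925 and 0.968 FPKM. LHFP, SGK3, KCNK3, SPC25 and GPC4 followed with differences of 1.99 to 1.6, and the small RNA SCARNA27 is listed at 0 in accelerated replicate 1 and at 32.4 FPKM in replicate 2.

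**Figure D3:**
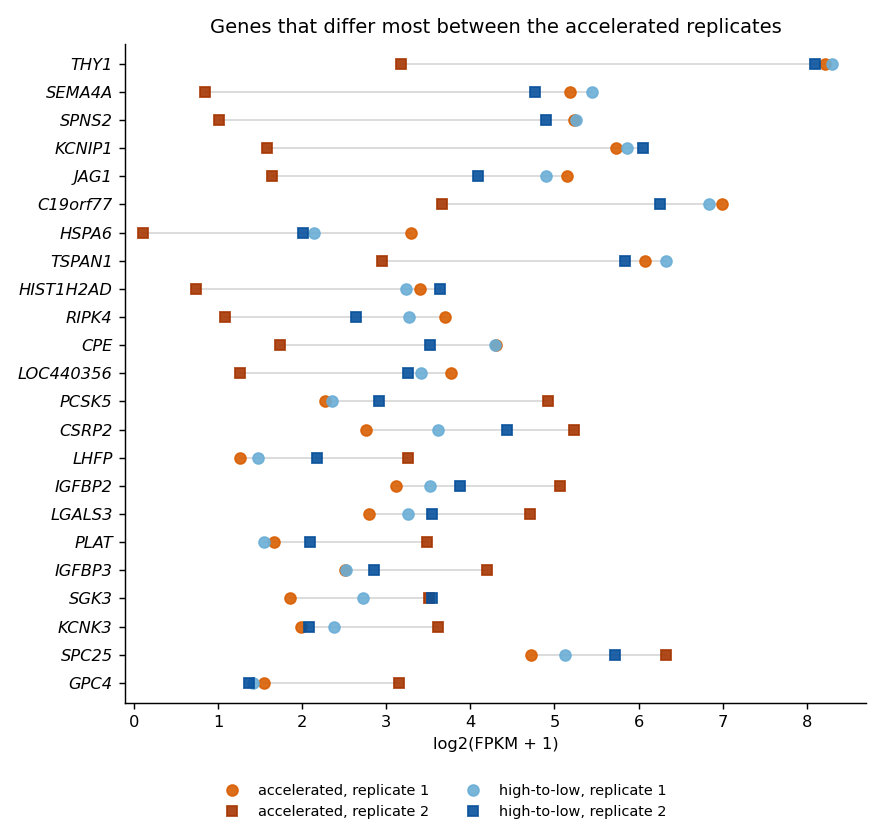
log2(FPKM + 1) of the 12 genes lower and 11 genes higher in accelerated replicate 2 than in replicate 1 (SCARNA27 is not drawn), with the high-to-low replicates in blue. In the upper genes accelerated replicate 2 lies left of the other 3 libraries, and in most of the lower genes it lies right of them.

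Some genes were low in both second replicates, with accelerated replicate 2 the lowest. They fall outside the naming rule, whose high-to-low libraries had to agree, and were chosen after their values were seen. CD24, a surface sialoglycoprotein used with CD44 to sort stem-like tumour cells, was at 216 and 0.253 FPKM in the accelerated and at 206 and 29.8 FPKM in the high-to-low pair. WFDC2, the secreted protein HE4 measured in serum of patients with ovarian and endometrial cancer, was at 56.2 and 1.95 FPKM, against 57.0 and 11.4 FPKM. CLDN4, a tight junction protein, was at 52.5 and 3.47 FPKM, against 43.6 and 10.1 FPKM. In all 3 genes both first replicates were high and accelerated replicate 2 was the lowest. CFI and CFB, a protease and a proenzyme of complement, were at 35.7 and 0.461 FPKM and at 55.6 and 3.47 FPKM among accelerated cells. Their high-to-low values were 27.9 and 2.04 FPKM and 65.6 and 11.2 FPKM.

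Interferon response and antigen presentation genes were mostly lowest in accelerated replicate 2. Of 40 kept members 37 were lower in the accelerated group (median log2 difference -0.35), but the median was -0.02 in replicate 1 and -0.53 in replicate 2 against the high-to-low mean. Accelerated replicate 2 was below the other 3 libraries for 31 members (77.5%), where this held for 30.5% of all genes kept. B2M, the light chain of HLA class I, was at 1710 and 561 FPKM in the accelerated and 1831 and 1128 FPKM in the high-to-low pair. HLA-B was at 198 and 48.5 FPKM, against 248 and 115 FPKM. PSMB9, a subunit of the immunoproteasome, was at 83.2 and 16.8 FPKM, against 82.3 and 89.1 FPKM. For PSMB9 replicate 2 of the accelerated group was alone, while for B2M and HLA-B high-to-low replicate 2 lay between. No member passed, and without accelerated replicate 2 the list's median was -0.02.

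Notch pathway genes were lower in accelerated replicate 2. All 13 kept members were lower in accelerated replicate 2 than in replicate 1, beside 49.9% over all genes. In 10 (76.9%) it was below the other 3 libraries, beside 30.5% over all genes. Beside JAG1 these included HEY1, a Notch target, at 5.76 and 1.49 FPKM in the accelerated and 5.51 and 3.54 FPKM in the high-to-low pair. HES1, another target, was at 84.5 and 17.7 FPKM, against 77.0 and 12.9 FPKM, low in both second replicates. The list's median against the high-to-low mean was 0.23 in accelerated replicate 1 and -0.44 in replicate 2. Between the groups it was -0.02, and 0.04 and -0.36 if high-to-low replicate 1 or 2 was left out.

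Immediate early genes, which are transcribed within minutes of a stimulus, were low in both second replicates. Of 24 kept members 21 (87.5%, beside 49.9% over all genes) were lower in accelerated replicate 2 than in replicate 1 (median -0.91). The high-to-low replicates differed by a median of -0.82. FOS, a subunit of the AP-1 factor, was at 49.9 and 2.2 FPKM in the accelerated and 31.6 and 10.2 FPKM in the high-to-low pair. EGR1, a zinc finger factor, was at 42.7 and 3.04 FPKM, against 17.4 and 4.68 FPKM. DUSP1, a phosphatase of MAP kinases, was at 114 and 12.1 FPKM, against 90.1 and 27.1 FPKM. In each gene replicate 1 was the higher library of its group. JUN behaved alike, with 30.9 and 1.73 against 24.6 and 2.18 FPKM. Between the groups the median log2 difference of the list was -0.01, and no member passed. It turned on single libraries, at 0.49 and -0.52 if accelerated replicate 2 or 1 was left out and 0.46 and -0.40 if high-to-low replicate 1 or 2 was, and it was 0.04 under quantile normalization. The 250 bases before the RefSeq start of EGR1, FOS and DUSP1 are shown because these genes differed alike between replicates; the 3 were chosen after their values were seen. Capitals mark the motifs found. EGR1 (chr5:138465229-138465478, plus strand, GRCh38.p14) holds 2 CArG boxes, the sites bound by serum response factor, which start 105 and 83 bases before the gene's start. FOS (chr14:75278578-75278827, plus strand) holds TATAAA from 33 bases before the start. DUSP1 (chr5:172771196-172771445, minus strand) holds TGACGTCA, the cyclic AMP response element, from 125 bases and TATAAA from 30 bases before the start. Among 34943 promoters of this length, 1.165% hold a CArG box, 1.634% the cyclic AMP response element, 10.75% the TATA box and 4.22% the AP-1 site, which none of the 3 holds. The matches overlap no other motif searched, and they describe the sequence only.
EGR1: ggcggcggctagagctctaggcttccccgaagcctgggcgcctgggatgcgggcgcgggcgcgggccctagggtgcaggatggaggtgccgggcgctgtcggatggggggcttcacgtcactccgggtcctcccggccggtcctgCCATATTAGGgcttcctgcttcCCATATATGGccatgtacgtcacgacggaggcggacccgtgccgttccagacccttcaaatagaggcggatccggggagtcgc
FOS: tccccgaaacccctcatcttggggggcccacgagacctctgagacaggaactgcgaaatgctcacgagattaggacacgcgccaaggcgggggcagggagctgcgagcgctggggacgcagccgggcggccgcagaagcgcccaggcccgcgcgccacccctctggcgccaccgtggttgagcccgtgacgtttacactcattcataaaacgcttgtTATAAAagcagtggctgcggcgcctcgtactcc
DUSP1: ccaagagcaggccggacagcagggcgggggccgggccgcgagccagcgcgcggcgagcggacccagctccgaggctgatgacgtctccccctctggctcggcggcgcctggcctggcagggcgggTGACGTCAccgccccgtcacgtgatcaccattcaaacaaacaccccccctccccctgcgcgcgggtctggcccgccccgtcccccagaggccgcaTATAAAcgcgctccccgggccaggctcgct

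Genes of DNA replication and mitosis were high in both second replicates. Of 43 kept members all but 2 were higher in accelerated replicate 2 than in replicate 1 (median 0.73). The share that was lower was 4.65%, beside 49.9% over all genes. The high-to-low replicates differed by a median of 0.61 in the same direction. CCNB1, the cyclin of mitotic entry, was at 225 and 509 FPKM in the accelerated and 263 and 447 FPKM in the high-to-low pair. MKI67, the gene of the Ki-67 proliferation marker, was at 16.5 and 32.1 FPKM, against 14.8 and 29.5 FPKM. BUB1, a kinase of the spindle checkpoint, was at 44.6 and 156 FPKM, against 43.7 and 88.8 FPKM. Between the groups the median log2 difference was -0.09. Its sign turned under quantile normalization and on leaving out a library: it became 0.24 if accelerated replicate 1 was dropped and 0.17 if high-to-low replicate 2 was, and -0.46 and -0.43 if the other library of either group was.

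**Figure D4:**
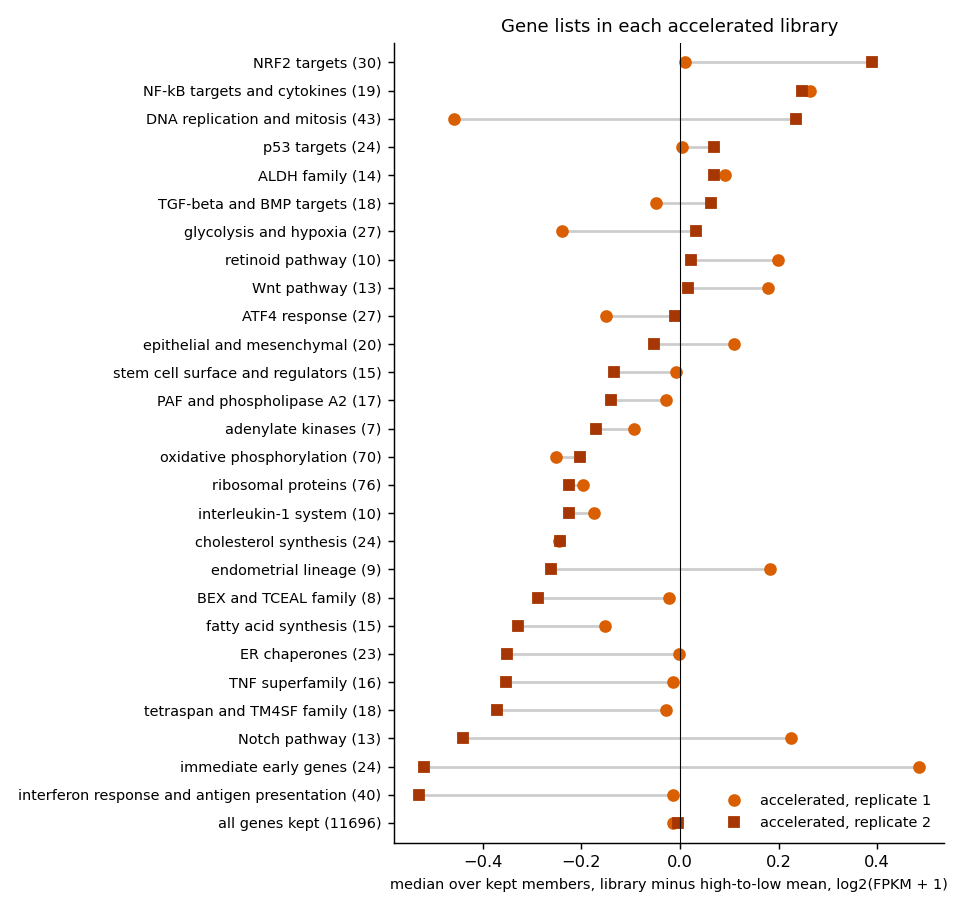
Median difference of each gene list from the high-to-low mean in accelerated replicate 1 (circles) and replicate 2 (squares), in log2(FPKM + 1), with the number of kept members in brackets; all genes kept stand at the bottom. Ribosomal protein, oxidative phosphorylation, cholesterol and NF-kB lists have both symbols together, whereas interferon, immediate early, Notch and replication lists have them apart.

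No stem cell or epithelial marker passed the threshold between the groups. Of 15 kept genes of stem cell surface and regulation 10 were lower. Without overlap, 2 were lower (13.3%, beside 13.0% over all genes) and 2 higher (13.3%, beside 11.1%), near the shares over all genes. The list's median was -0.14, but 0.03 if high-to-low replicate 2 was left out, -0.35 if replicate 1 was and -0.01 if accelerated replicate 2 was. CD44, the hyaluronan receptor, was at 22.6 and 18.2 FPKM in the accelerated and 25.9 and 41.1 FPKM in the high-to-low pair (log2 difference -0.66, SE 0.29, limma adjusted p = 1.0). MYC, a growth regulator, was at 37.5 and 42.7 FPKM, against 34.0 and 30.5 FPKM. ABCG2, a drug exporter of side population cells, was at 0.509 and 4.45 FPKM, against 0.702 and 2.65 FPKM, high in both second replicates. Of 20 kept epithelial and mesenchymal genes 10 were higher and 10 lower. CDH2, N-cadherin, was at 20.8 and 32.3 FPKM, against 19.5 and 13.0 FPKM (0.67, SE 0.31). Markers of the labelled carcinoma type were mixed. KRT8 (90.6 to 108 FPKM), KRT18 (291 to 464 FPKM), EPCAM (4.43 to 10.6 FPKM) and the Mullerian factor PAX8 (123 to 189 FPKM) were expressed in the 4 libraries. CLDN4, given above, was low in both second replicates. CDH1, E-cadherin, was at or near 0 in all 4 (at most 0.0868 FPKM), and CLDN3 reached at most 0.825 FPKM.

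Markers of other cell types were nearly absent in all 4 libraries; in such bulk RNA fewer cells of a type and less RNA per cell cannot be told apart. Of 15 leukocyte markers 14 stayed below 1 FPKM, PTPRC at 0.0421 FPKM or less and CD3E at 0 in all 4, and the summed level was 2.53 and 1.16 FPKM in the accelerated and 3.16 and 2.59 FPKM in the high-to-low pair. All 11 endothelial markers stayed below 1 FPKM. Of 11 fibroblast markers 10 stayed below 1 FPKM; the exception was ACTA2, which is also made by carcinoma cells, at 8.16 to 15.1 FPKM. Of 14 neuronal and glial markers 12 stayed below 1 FPKM, with TUBB3 at 2.19 and 10.4 FPKM in the accelerated and 2.50 and 7.85 FPKM in the high-to-low pair.

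The difference between the accelerated replicates varied by chromosome. A RefSeq chromosome was found by symbol for 11386 of the kept genes. In accelerated replicate 2 against replicate 1 the median log2 difference was 0.26 over 745 genes of chromosome 2, 0.22 over 467 genes of chromosome 9, 0.19 over 380 genes of chromosome 14, 0.26 over 152 genes of chromosome 18 and 0.31 over 105 genes of chromosome 21. On these chromosomes 65.3 to 71.7% of genes were higher in replicate 2. The lowest median, -0.16, was that of 534 genes of chromosome 16, where 35.2% were higher. Against high-to-low replicate 2, so that both comparisons share accelerated replicate 2, this library had medians of 0.23, 0.27, 0.22, 0.20 and 0.25 on chromosomes 2, 9, 14, 18 and 21, and -0.18 on chromosome 16. The high-to-low replicates differed by medians between -0.06 and 0.10 over all chromosomes, and accelerated replicate 1 differed from high-to-low replicate 1 by medians at or just below 0, the lowest being -0.05. ALDH1A1 lies on chromosome 9, as does TSC1. Whether the shift of that chromosome has a part in the level of either gene was not tested. Genes of a chromosome share their library and are not independent replicates, so no test is given.

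**Figure D5:**
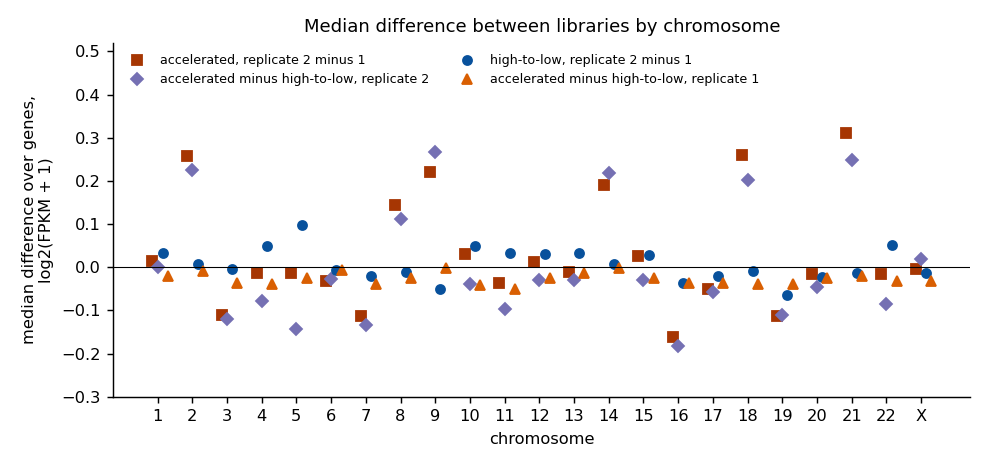
Median difference in log2(FPKM + 1) over the kept genes of each chromosome, for 4 pairs of parental libraries. Both pairs with accelerated replicate 2 reach 0.19 to 0.31 on chromosomes 2, 9, 14, 18 and 21, whereas the pairs without it stay between -0.06 and 0.10.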

How the data were processed

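Total RNA of HEC-1B cells came from a miRNeasy extraction, was turned into cDNA by SMART-Seq v4 and became libraries by Nextera, per the labels' protocols. Each library has 1 deposited table, in which the authors give an FPKM for every gene symbol. TopHat2 2.0.13, Cuffnorm 2.2.1 and hg19 are named in the submitters' processing notes; annotation and scaling between libraries have no source here. Because the cDNA kit does not mark strand, reads of overlapping or antisense genes are not separable. Transcript-length scaling makes FPKM of very short RNAs unstable.

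Genes of at least 1 FPKM in at least 2 of the 4 parental libraries were kept, without MIR, SNORA, SNORD and SNAR symbols. Values were taken as log2(FPKM + 1), which understates changes of low genes, and fitted with limma 3.58.1 in R 4.3.3 over the 4 libraries, with a variance trend, 2 residual degrees of freedom and Benjamini-Hochberg adjustment, two-sided. A count model was not used on FPKM, and depth was read only as a ratio, from genes under 0.3 FPKM whose values in 2 libraries share 1 ratio within 3%; 17.6 to 20.4% of such genes did, so the ratio is rough. The fit was tested on simulated data with known changes.

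Named genes are those called, the 12 in each direction with the widest gap between groups (group mean of at least 3 FPKM on the higher side), the 12 in each direction with the greatest difference between accelerated replicates (high-to-low replicates within 1 on the log2 scale, at least 5 FPKM in the higher library), ALDH1A1, IL1R2, CD70, PLA2G7 and members of fixed gene lists with the greatest differences or defining roles. The members and lists were chosen with earlier results of these data known. CD24, WFDC2, CLDN4, CFI and CFB were named after their values were seen. Alternatives were other pseudocounts (0.1 and 0.5), filters, scalings and limma settings, a fit over all 6 libraries, a replicate block and leaving out each library. Some genes and 1 gene list are not reported here. A list is described by counts and medians without a test. Promoters come from RefSeq (GRCh38.p14); coordinates of the files' build are not used.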

Additional observations from a re-analysis of the deposited data

Results flagged for a closer look

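Among the 87 small RNA symbols that passed the FPKM minimum and were left out, 7 were above 0 in both accelerated libraries with a listed value of 0 in each high-to-low library. All 7 passed that minimum only through the accelerated pair, so their lack of overlap was fixed by it. Over the genes kept, 11.1% were higher and 13.0% lower without overlap, a condition that asks for no listed 0. MIR3651 was at 539 and 715 FPKM, MIR568 at 409 and 209 FPKM and MIR659 at 171.3 and 175 FPKM. The small RNA SNAR-E was at 41.0 and 83.9 FPKM. SNORA41 was at 24.6 and 25.1 FPKM, SNORA45 at 102 and 26.1 FPKM and SNORA80B at 21.1 and 21.6 FPKM. For MIR659, SNORA41 and SNORA80B the accelerated values stood in the ratio of the depths of these libraries (0.978), which equal fragment counts would give. Their close values are therefore no measure of spread. In the opposite direction SNORA18 and SNORA5C (2 symbols) are listed at 0 in both accelerated libraries and were at 20.3 to 70.6 FPKM in the high-to-low libraries. Both passed the minimum only through the high-to-low pair. The high-potential libraries, where they are given side by side, list MIR568 and MIR659 at 0, MIR3651 at 0 and 1084 FPKM, and SNAR-E at 114 and 1041 FPKM, so libraries of one group can differ by as much.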

How the results depend on the processing

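The number of genes passing limma's adjusted threshold was 1 and stayed between 0 and 2 under most alternatives. It was 0 without a filter on low values, 0 in the fit over all 6 libraries and 0 with other small RNA symbols (vault, Cajal body, ribonuclease P and the like) left out too, a setting chosen after seeing the data. With MIR, SNORA, SNORD and SNAR symbols kept it was 7, of which 6 were higher and passed the FPKM minimum only through the accelerated pair. With a replicate block the number was 2. Leaving out 1 library leaves 1 in its group, so counts and p-values of such fits are not given. The unadjusted count of 81 became 297 without a filter, 39 at a minimum of 5 FPKM and 600 with the replicate block, and 30 to 786 without 1 library. The labels share replicate numbers but call them no pairing; differences between replicates 1 and 2 in the 2 groups correlated across genes (r = 0.519), with 2 pairs only. The ALDH1A1 difference ranged from 0.66 to 4.18 without 1 library. It stayed between 2.42 and 2.48 under the other settings, where limma adjusted p lay between 0.809 and 1.0. With a pseudocount of 0.1, 277 genes differed at least 4-fold between the accelerated and 123 between the high-to-low replicates. The 24 genes named for the gap between groups cannot reverse on leaving out a library, because their groups do not overlap; the genes named for the accelerated replicates were not refitted. VTRNA1-3 lost its call without a filter and in the fit over 6 libraries, and SCARNA22 passed with the block (limma adjusted p = 0.0386). The cause was not tested. Of 448 alternative list medians 53 moved, in 18 of 28 lists, and quantile normalization turned the sign of the ALDH, replication and mitosis, immediate early, and BEX and TCEAL lists. Scaling choices moved the median of all genes by less than 0.03. With 2 libraries a group, precision is limited by their number.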

Other observations

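Amino acid and stress genes differed by member. Of 27 kept ATF4 response genes 15 were higher and 12 lower (median log2 difference 0.01, between -0.15 and 0.05 on leaving out a library). PHGDH, the first enzyme of serine synthesis, was at 123 and 131 FPKM in the accelerated and 171.5 and 168.8 FPKM in the high-to-low pair, tight within each group (-0.42, SE 0.21, limma adjusted p = 1.0). NUPR1, a stress-induced nuclear protein, was at 104 and 24.6 FPKM, against 126 and 136 FPKM, so accelerated replicate 2 was the low library. Of 23 endoplasmic reticulum chaperones and regulators 15 were lower (median -0.13), 6 without overlap (26.1%, beside 13.0% over all genes), and the median was -0.0015 if accelerated replicate 2 was left out. MANF, a secreted stress protein, was at 35.8 and 28.4 FPKM, against 40.3 and 60.8 FPKM. Of 27 genes of glycolysis and hypoxia 18 were lower (median -0.13, but 0.03 and 0.01 if accelerated replicate 1 or high-to-low replicate 2 was left out), and ENO2, an enolase, was at 42.5 and 11.8 FPKM, against 45.9 and 35.0 FPKM.

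TGF-beta and BMP targets had 9 of 18 higher (median -0.01), Wnt genes 8 of 13 (median 0.02), p53 targets 14 of 24 (median 0.06) and endometrial lineage genes 3 of 9 (median -0.10). The sign of each of these 4 medians turned if some 1 library was left out. CTGF, a matricellular protein, was at 143 and 265 FPKM, against 127 and 97.9 FPKM (log2 difference 0.80, SE 0.35, limma adjusted p = 1.0). GDF15, a p53 target and secreted stress signal, was at 195 and 192 FPKM, against 226 and 62.9 FPKM, with only high-to-low replicate 2 apart. HOXA10, a factor of uterine identity, was at 10.6 and 13.4 FPKM, against 14.9 and 17.8 FPKM, without overlap.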
